A study of Mus musculus with 9 samples.

Results

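The genes for respiratory complexes II to V were examined in fetal mouse ventricles that carried no, 1 or the normal number of intact Esrrg copies. Members were all probe sets that name 1 gene whose platform symbol starts with Sdh followed by a to d, with Uqcr, with Cox followed by a number from 4 to 8 or of 10 or more, or with Atp5, together with Cyc1 and Cycs. This gave 60 genes of 18193 named on the array, on 120 of its 45101 probe sets. Each gene was followed by its brightest probe set, the one with the highest mean over all arrays. Of the 60, 59 were bright enough to be tested, and Cox7b2 was below the filter on dim genes at a signal of 21.7.

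Esrrg encodes ERRγ, the gamma form of the estrogen-related receptors, which are nuclear receptors without a known natural ligand and bind many genes of mitochondrial energy metabolism. The 3 groups were KO (ERRg -/-), HET (ERRg +/-) and WT (ERRg +/+), each with 3 Affymetrix arrays of male cardiac ventricle at E18.5, shortly before birth. Each array is labelled a biological replicate, and its source is given as 3 ventricles of the genotype, so whether an array held pooled ventricles is not settled, and p-values refer to array-to-array spread only. The strain and the part of Esrrg that was deleted are not given in the sources used here, and no treatment is listed beyond storage in a preserving solution. The comparisons ask how the genes of these complexes read without ERRγ and with a single intact copy.

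Complexes II to V are part of the oxidative phosphorylation system of the mitochondrial inner membrane. Complex II (succinate dehydrogenase) and complex III pass electrons by way of cytochrome c to complex IV (cytochrome c oxidase), which reduces oxygen, while complex V (ATP synthase) makes ATP from the proton gradient. Heart and skeletal muscle use tissue-restricted isoforms of some complex IV subunits, among them Cox6a2, Cox7a1 and Cox8b, in place of the general Cox6a1, Cox7a2 and Cox8a, and the muscle forms are known to become more prominent as the heart matures.

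Values are the deposited MAS5 signals, the linear brightness of a probe set, with every array scaled to a trimmed mean of 200. Array medians were 37.7 to 40.2 in KO, 39.7 to 44.6 in HET and 36.6 to 45.9 in WT. With 3 arrays a group, precision is limited by their number. Differences below are on the log2(signal + 16) scale with their standard errors (SE), and a call is an adjusted p under 0.05 in limma's moderated test, with Benjamini-Hochberg adjustment over 13028 genes. The brightest Esrrg probe set, which checks the labels, gave 58.3, 58.1 and 39.3 in KO, 162, 164 and 162 in HET and 281, 213 and 206 in WT. The arrays were split by the log2 ratio of the thr to the dap spike-in controls, at the widest gap between the sorted ratios. Such a cut always gives 2 sets. The first set held WT replicates 1 to 3 with HET replicate 1 (-1.02 to -0.81). The second set held KO replicates 1 to 3 with HET replicates 2 and 3 (-1.33 to -1.20). The gap, from -1.20 to -1.02, was narrower than the spread within the first set. The labels name no batch, KO and WT lie wholly in different sets, and only HET spans both. KO and WT can therefore be set against each other within a set only by way of HET. Over all genes, KO against WT gave 211 calls (1.62%), 96 of them higher, against 1 call with the spike-in set as a block.

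Most genes of complexes II to V read slightly lower in KO than in WT ventricles. Of the 59 tested, 45 were lower and 14 higher in KO, with a median difference of -0.09 against -0.01 over all genes, of which 51.6% were lower. One passed the test: Cox5b, a subunit of complex IV, fell, against 0.883% of all genes called lower and 0.737% called higher. Without HET replicate 1, whose spread enters the fit, 11 members were called, all lower, against 840 of all genes (6.45%, of them 454 lower). Without any single KO or WT array no member was called, against 10 to 79 of all genes. At an unadjusted p under 0.05, 16 members were lower and 4 higher in KO, against 9.28% and 7.91% of all genes. KO and WT arrays were fully apart for 24 members that were lower and 4 that were higher, against 13.9% and 11.1% of all genes. Subunits and electron carriers were lower in 40 of 47 cases, while assembly factors were lower in 5 and higher in 7 of 12.

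The lower readings went with the second spike-in set, which holds all KO arrays and no WT array. Set and genotype therefore cannot be told apart between KO and WT. On each array, the median deviation of the 59 members from their own means over the 9 arrays was -0.06, -0.02 and -0.03 in KO, 0.06, -0.05 and -0.05 in HET and 0.02, 0.06 and 0.09 in WT. HET replicate 1, in the first set, thus stood with WT, and HET replicates 2 and 3, in the second set, stood with KO. Between the HET arrays alone, the second set minus the first gave a median of -0.10 over the members, with 45 of 59 lower. Over all genes it gave -0.05, with 7260 of 13028 lower. Within the second set, KO minus HET gave a median of 0.01, with 26 of 59 lower, against 0.0015 over all genes, with 6467 of 13028 lower. With the spike-in set as a block the KO minus WT median was 0.0039, with 28 of 59 lower and none called, against 1 call over all genes. In that fit 1 member was lower and 1 higher at an unadjusted p under 0.05. The shares of all genes that were lower or under that p with the block are not given here. That fit takes its estimate of the set difference from the 3 HET arrays alone, so it is imprecise.

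**Figure D1:**
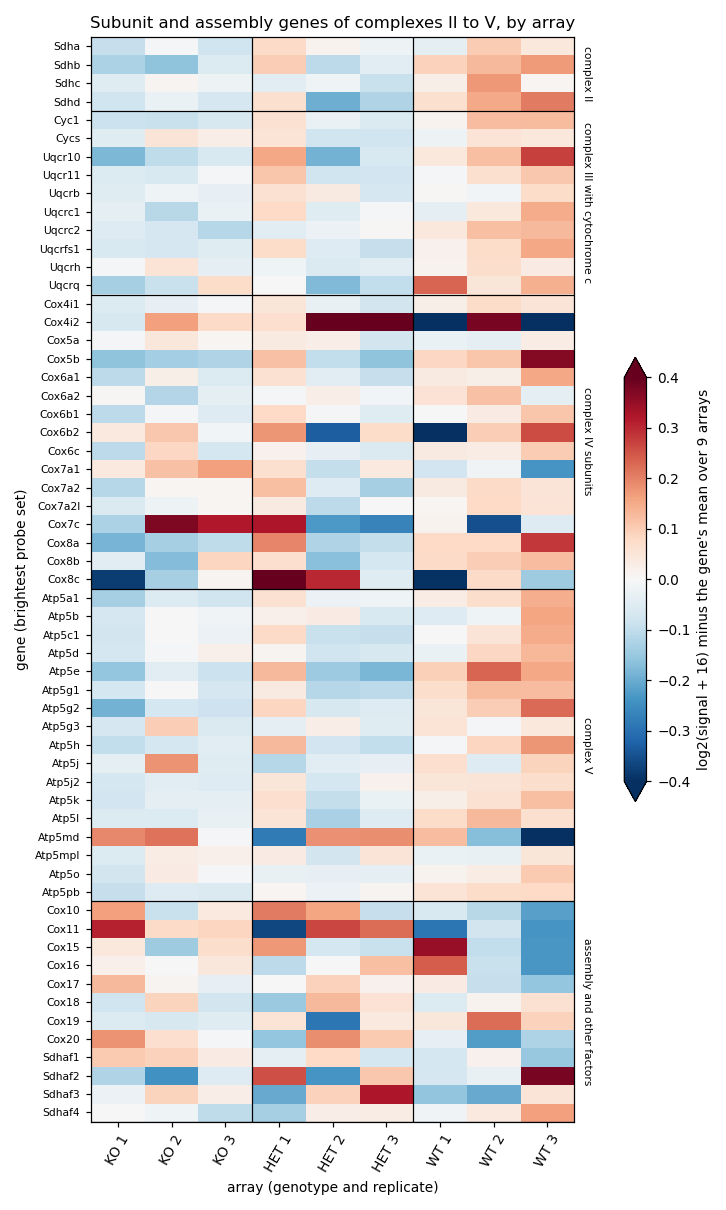
Each row is 1 of the 59 tested genes (brightest probe set) grouped by role, each column 1 array (KO, HET and WT, 3 each), and the colour is log2(signal + 16) minus the gene's mean over the 9 arrays. Most subunit rows are blue in KO and in HET replicates 2 and 3 and red in WT and in HET replicate 1, while several assembly factor rows show the opposite.

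Complex II oxidises succinate to fumarate and feeds the electrons to ubiquinone. All 4 of its subunit genes were lower in KO than in WT, with a median difference of -0.15, and none was called. Sdhb, the iron-sulfur subunit, gave 13081, 12776 and 13752 in KO, 15295, 13293 and 13882 in HET and 15229, 15619 and 16063 in WT. All 3 KO arrays lay below all WT arrays, and HET replicate 1 lay among WT. The KO mean was 84.4% of WT, a difference of -0.24 ± 0.06 (SE, n = 3 each) with an adjusted p of 0.0582 in limma's test, and -0.07 with the spike-in set as a block. Sdhd, a membrane anchor, gave 7376, 7653 and 7437 in KO, 8159, 6804 and 7174 in HET and 8153, 8667 and 9003 in WT. No KO array overlapped a WT array, and HET replicates 2 and 3 lay below every KO array. The Sdhd difference was -0.20 ± 0.07 (adjusted p = 0.149 in limma's test), and 0.02 with the block. Sdha, the flavoprotein with the succinate site, read 7125 to 7553 in KO, 7487 to 7999 in HET and 7408 to 8147 in WT, so its groups overlapped.

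Complex III moves electrons from ubiquinol to cytochrome c, and its 9 tested genes with Cycs, the gene for cytochrome c, were all lower in KO by the brightest probe set, with a median of -0.13 and none called. Uqcr10, a small subunit, gave 7971, 8402 and 8646 in KO, 10051, 7909 and 8658 in HET and 9294, 9802 and 10915 in WT. Its KO arrays lay below its WT arrays, with a difference of -0.26 ± 0.08 (SE, n = 3 each, adjusted p = 0.117 in limma's test), against 0.02 with the spike-in set as a block. Cyc1, which carries the haem c of complex III, gave 11266, 11242 and 11442 in KO, 12490.1, 11743 and 11507 in HET and 12073, 13039 and 13076 in WT. Every KO array was below every HET and WT array, and the Cyc1 difference of -0.17 ± 0.06 between KO and WT had an adjusted p of 0.137 in limma's test, and was -0.07 with the block.

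Uqcrc2, a core subunit of complex III, was the one member that was lower at an unadjusted p under 0.05 also with the spike-in set as a block. It gave 11063, 10962 and 10611 in KO, 11152, 11288 and 11511 in HET and 11819.7, 12485 and 12547 in WT. The 3 genotypes did not overlap, and KO was lowest and WT highest. KO minus WT was -0.17 ± 0.05 (SE, n = 3 each, adjusted p = 0.111 in limma's test) and -0.21 ± 0.08 with the block (adjusted p = 0.772). KO minus HET within the second set was -0.07, HET minus WT within the first was -0.14, and the HET arrays of the second set were 0.03 higher than that of the first. Under 20 other ways of processing the arrays its difference ran from -0.21 to -0.10, with adjusted p from 0.033 to 0.772.

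Complex IV had the one called member and the widest range. Of its 16 tested subunit genes 11 were lower and 5 higher in KO, with a median of -0.08. Cox5b, a nuclear-encoded subunit that binds zinc, gave 19631, 19978 and 20194 in KO, 23832, 20512 and 19624 in HET and 23269, 23745 and 28332 in WT. The KO arrays were close together and below all WT arrays, WT replicate 3 stood above the other two, and HET replicate 1 lay among WT. Cox5b fell to 79.4% of WT in KO, a difference of -0.33 ± 0.08 (SE, n = 3 each, adjusted p = 0.0483 in limma's test). The call is close to the threshold. It was kept under 5 of 20 other ways of processing the arrays, with adjusted p from 0.00525 to 0.948, and without WT replicate 3 the difference was -0.24 (adjusted p = 0.207). With the spike-in set as a block it was -0.08 ± 0.11 (adjusted p = 0.948), and the second set of HET arrays was 0.25 below the first. The other bright Cox5b probe sets gave -0.18, -0.19 and -0.05, so the probe sets agreed in sign and not in size. All were read on the same arrays, so they are not independent. The brightest probe set and those at -0.18 and -0.19 have names ending in x_at, and the one at -0.05 does not. Whether any of them also picks up other transcripts was not tested. The one at -0.05 read 11276, 11921 and 11668 in KO and 12266, 11860 and 11920 in WT. KO and WT thus overlapped on it, and the fall was not seen clearly by every Cox5b probe set.

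The remaining complex IV subunits that were tested had no call. Cox4i1, the general form of the subunit 4 gene, gave 16459, 16727 and 16995 in KO, 17671, 16757 and 16245 in HET and 17367, 17986 and 17729 in WT. Its KO arrays lay just below its WT arrays, with a difference of -0.08 ± 0.05. Cox4i2, the form known from lung and hypoxic cells, was dim, at 39.7, 49.3 and 45.4 in KO, 45.0, 86.9 and 61.4 in HET and 21.1, 59.8 and 9.30 in WT, and its groups overlapped. Cox6b1, the general form of subunit 6b, gave 18773, 20113 and 19483 in KO, 21347, 20149.7 and 19528 in HET and 20169.7, 20679 and 21804 in WT, and differed by -0.10 ± 0.06 between KO and WT. Its testis form Cox6b2 read 226 to 247 in KO, 178 to 260.2 in HET and 167 to 277 in WT. Cox7c and Cox8c had only dim probe sets naming 1 gene (Cox7c 54.7 to 84.0 in KO and 44.5 to 61.9 in WT), and their differences had SEs of 0.26 and 0.24.

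Of the 3 heart isoforms of complex IV, Cox7a1 had a higher mean in KO than in WT, Cox6a2 and Cox8b had lower means, and none was called. KO and WT arrays overlapped for Cox6a2 and Cox8b. Cox7a1, the heart and muscle form of subunit 7a, gave 5352, 5643 and 5831 in KO, 5441, 4874 and 5348 in HET and 4931, 5159 and 4418 in WT. All KO arrays lay above all WT arrays, and the HET arrays lay across both. It was the only complex IV subunit gene whose KO and WT arrays did not overlap with KO higher. The assembly factors Cox11, Cox20 and Sdhaf1 showed this too. Sdhaf1 differed by 0.14 ± 0.10 (adjusted p = 0.483 in limma's test), and by 0.11 with the spike-in set as a block. The Cox7a1 KO mean was 116% of WT, a difference of 0.22 ± 0.07 (SE, n = 3 each, adjusted p = 0.137 in limma's test). With the spike-in set as a block the difference was 0.31 ± 0.12 (adjusted p = 0.767). It was above 0 under all 20 other ways of processing (0.15 to 0.31, adjusted p from 0.0644 to 0.767), and passed under none of them.

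Cox7a2, the general form of subunit 7a, gave 19003, 20678 and 20695 in KO, 22355, 19855 and 18770.1 in HET and 21074, 21682 and 21323 in WT. Its KO arrays lay below its WT arrays, with a difference of -0.09 ± 0.06 (adjusted p = 0.536 in limma's test). It turned to 0.12 with the spike-in set as a block and to 0.08 after quantile normalization. Within each array, the difference of Cox7a1 from Cox7a2, set to a WT mean of 0, was 0.32, 0.27 and 0.32 in KO, 0.11, 0.12 and 0.33 in HET and 0.05, 0.07 and -0.12 in WT. The KO arrays were all above the WT arrays, by 0.30, and HET was between them on average at 0.19. The two-sided exact permutation test of KO against WT gave p = 0.1, the smallest that 3 arrays against 3 allow. Over the 3 genotypes the exact permutation test gave p = 0.025 among 1680 arrangements, and 0.075 after Benjamini-Hochberg adjustment over the 3 isoform pairs, so it did not pass. The shift was 0.18 with the spike-in set as a block and 0.16 after quantile normalization. KO minus HET within the second set was 0.08, HET minus WT within the first 0.11, and the second set of HET arrays 0.12 above the first.

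Cox8b, the heart and muscle form of subunit 8, gave 9281, 8477 and 10145 in KO, 10028, 8522 and 9117 in HET and 10093, 10244 and 10415 in WT. KO overlapped WT by 1 array, and all HET arrays lay below all WT arrays. Its KO minus WT difference was -0.14 ± 0.07 (adjusted p = 0.337 in limma's test), and 0.04 with the spike-in set as a block. Cox8a, the general form, gave 5968, 6191 and 6328 in KO, 7784, 6252 and 6361 in HET and 7181, 7181 and 8271 in WT. All KO arrays were below all WT arrays, and the KO mean was 81.7% of WT, a difference of -0.29 ± 0.08 (adjusted p = 0.091), against 0.01 with the block. The within-array difference of Cox8b from Cox8a was 0.14 higher in KO than in WT (two-sided exact permutation p = 0.3, and 0.221 over the 3 genotypes), and the shift was 0.03 with the block.

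Cox6a2, the heart and muscle form of subunit 6a, gave 11587, 10656 and 11256 in KO, 11518, 11784 and 11473 in HET and 12026, 12530.0 and 11282 in WT. Cox6a1, the general form, gave 13701, 14982 and 14190.5 in KO, 15369, 14276 and 13828 in HET and 15131, 14986 and 16432 in WT. The groups overlapped for Cox6a2, and KO lay just below WT for Cox6a1. The differences were -0.10 ± 0.06 for Cox6a2 and -0.12 ± 0.06 for Cox6a1 (adjusted p = 0.433 and 0.345 in limma's test), and with the spike-in set as a block -0.11 for Cox6a2 and 0.01 for Cox6a1. Their within-array difference was 0.02 higher in KO than in WT (two-sided exact permutation p = 0.8). A second, dimmer Cox6a2 probe set gave 727, 1556 and 593 in KO, 1962, 1547 and 2142 in HET and 1491, 1761 and 1780.3 in WT. KO replicates 1 and 3 were low on it and KO replicate 2 was not, which the brighter probe set did not show. Its KO minus WT difference was -0.92 ± 0.24 (adjusted p = 0.0799 in limma's test with each probe set on its own). With the spike-in set as a block it was -0.81 ± 0.43 (adjusted p = 0.83). Averaging the probe sets of each gene moved the shift between Cox6a2 and Cox6a1 to -0.43.

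**Figure D2:**
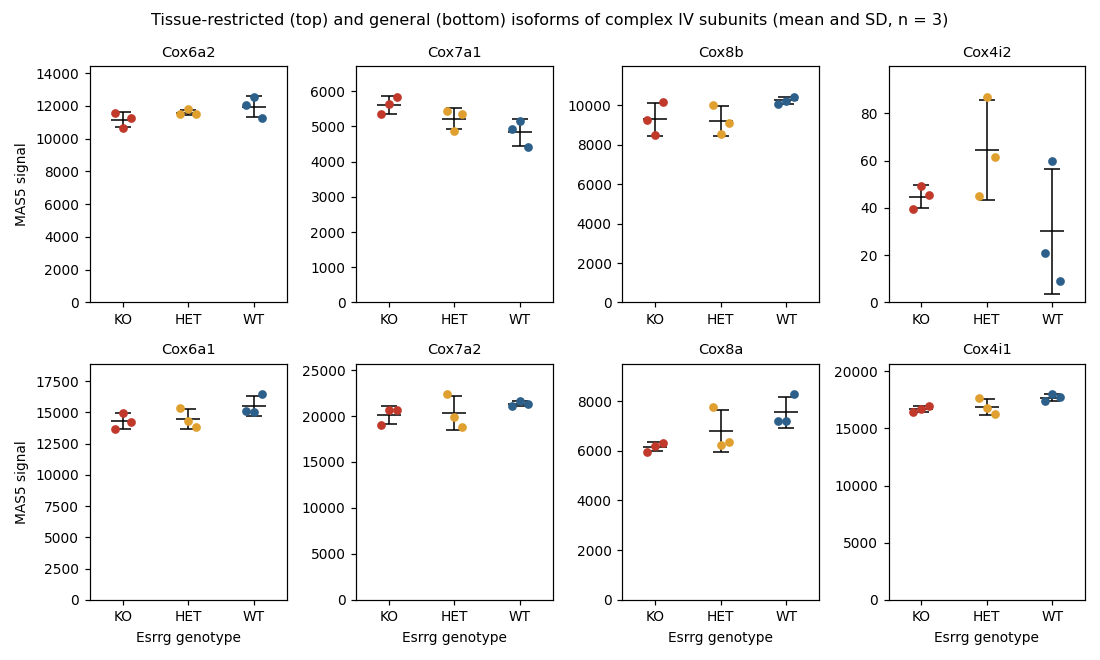
MAS5 signal (vertical axes, from 0) of tissue-restricted isoforms of complex IV subunits (top) and their general counterparts (bottom), with 1 point per array and the mean and SD of the 3 arrays of each Esrrg genotype. Cox7a1 is higher in KO (5352 to 5831) than in WT (4418 to 5159), while Cox8b, Cox6a2 and all 4 general forms have lower means in KO than in WT.

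Complex V makes ATP, and 15 of its 17 tested genes were lower in KO, with a median of -0.11 and none called. Atp5g2, 1 of the genes for subunit c of the rotor ring, gave 7302, 7934 and 7871 in KO, 8844, 7973 and 8039 in HET and 8614, 8917 and 9757 in WT. The KO arrays lay below all HET and WT arrays, and KO differed from WT by -0.24 ± 0.07 (SE, n = 3 each, adjusted p = 0.0843 in limma's test), and by -0.10 with the spike-in set as a block. Atp5e, the epsilon subunit of the stalk, gave 8789, 9507 and 9221 in KO, 10705, 8852 and 8618 in HET and 10468, 11509.9 and 10891 in WT. HET replicate 1 lay with WT and HET replicates 2 and 3 with KO, and the Atp5e difference of -0.26 ± 0.08 (adjusted p = 0.0993) was 0.04 with the spike-in set as a block. Atp5a1, the alpha subunit of the catalytic head, gave 16847, 17776 and 17453 in KO, 19275, 18172 and 18259.8 in HET and 18839.6, 19379 and 20409 in WT. Its KO arrays were the lowest 3, at -0.17 ± 0.05 against WT (adjusted p = 0.115), and -0.09 with the block.

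The 2 complex V genes that were higher in KO were Atp5md, a small membrane subunit, and Atp5mpl, whose difference was 0.0014. Atp5md gave 12127, 12339.6 and 10573 in KO, 8725, 12053 and 12079 in HET and 11549, 9421 and 7781 in WT. WT replicate 1 overlapped KO, and HET replicate 1 lay among WT. Its difference of 0.30 ± 0.13 (adjusted p = 0.25 in limma's test) was -0.17 with the spike-in set as a block.

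Assembly factors build the complexes and are not part of them. The 12 tested here, named Sdhaf or Cox with a number of 10 or more, had a median KO minus WT difference of 0.08, with none called. Cox11, a copper carrier for complex IV, gave 570.3, 483 and 486 in KO, 352, 554 and 537 in HET and 371, 434 and 386 in WT. KO was above WT on all arrays, HET replicate 1 was lowest of all, and HET replicates 2 and 3 lay among KO. Its difference of 0.36 ± 0.15 (SE, n = 3 each, adjusted p = 0.239 in limma's test) was -0.25 with the spike-in set as a block. Cox20, a chaperone for the mitochondrially encoded subunit 2 of complex IV, gave 4461, 4124 and 3913 in KO, 3533, 4481 and 4237 in HET and 3849, 3372 and 3615 in WT. The same arrays were high, and its 0.21 ± 0.09 (adjusted p = 0.25) was -0.10 with the block. Sdhaf2, which helps attach the flavin to Sdha, read 965 to 1103 in KO, 969.9 to 1372 in HET and 1091 to 1494 in WT, at -0.23 ± 0.13. Between the HET arrays, the second spike-in set was above the first by a median of 0.11 over the 12 factors, whereas over the 47 subunits and carriers it was below by a median of -0.11.

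**Figure D3:**
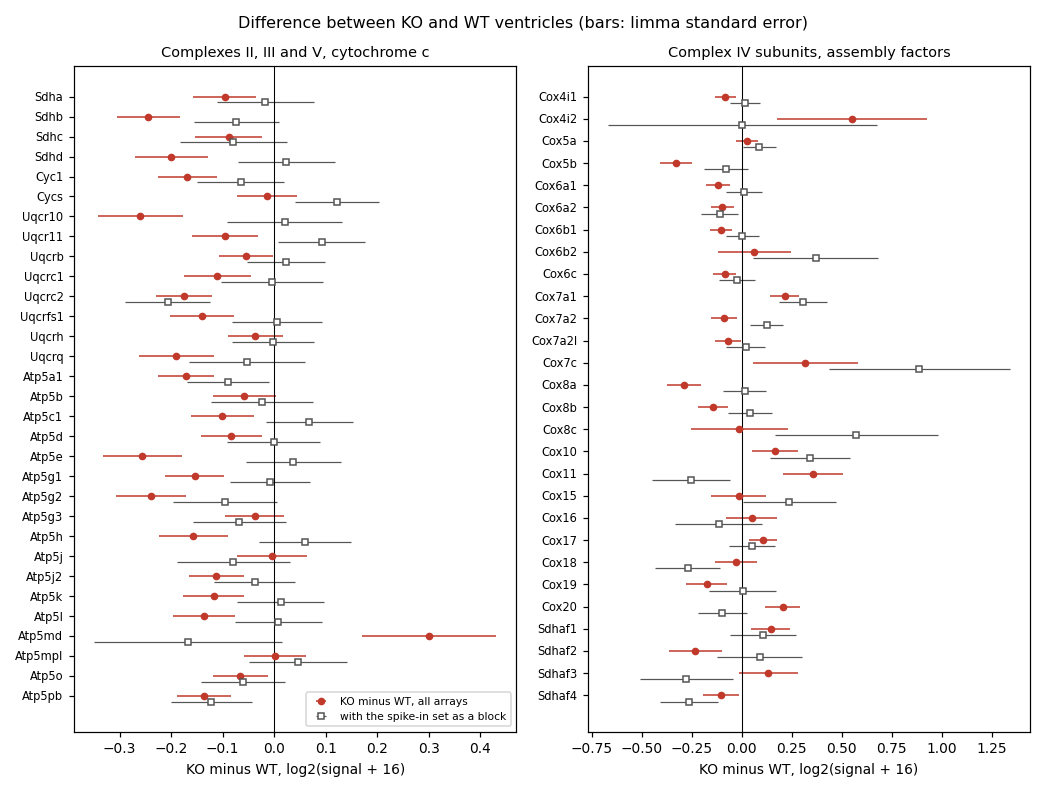
Difference between KO and WT in log2(signal + 16) for each tested gene (horizontal axes, bars are limma's standard errors), from all arrays (filled circles) and with the spike-in set as a block (open squares). Most filled circles lie left of 0 for complexes II, III and V, and most open squares lie nearer 0 with wider bars, while Cox7a1 stays right of 0 and Uqcrc2 left of 0 in both.

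Loss of 1 copy gave no called member. Of the 59 tested, 44 were lower and 15 higher in HET than in WT (50.9% of all genes were lower), with a median of -0.07 and 0 called by limma's test, against 0% of all genes. Without HET replicate 1 the HET and WT arrays lie wholly in different spike-in sets, and 9 members were called, 8 of them lower, against 574 of all genes (4.41%). Within the first set, HET minus WT had a median of -0.01 over the members, with 35 of 59 lower. Over all genes that median was 0.01, with 6187 of 13028 lower. After quantile normalization the median HET minus WT difference of the members was 0.0068, so the direction turned. At an unadjusted p under 0.05, 9 members were lower and 1 higher in HET, against 5.9% and 5.6% of all genes. HET lay wholly below WT for 10 members, among them Uqcrc2, Cox8b, Sdhc and Uqcrq, and wholly above for 0, against 7.41% and 6.29% of all genes. The one that was higher was Cox4i2, dim and scattered, at 0.92 ± 0.38 (adjusted p = 0.381). These comparisons share the 3 WT arrays with those of KO against WT. Side by side against WT, Sdhd differed by -0.20 in KO and by -0.22 in HET, Uqcrq by -0.19 in KO and by -0.23 in HET, Atp5e by -0.26 in KO and by -0.23 in HET, and Cox5b by -0.33 in KO and by -0.24 in HET. Within the first set, with 1 HET array, HET minus WT was -0.08, -0.14, -0.03 and -0.07 for these genes in that order. HET arrays of the second set minus that of the first gave -0.22, -0.14, -0.29 and -0.25. These genes were picked after their values were seen.

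KO and HET differed little for these genes. Between them 35 of 59 members were lower in KO, against 51.7% of all genes, with a median of -0.01 and 0 called by limma's test, against 0.0154% of all genes. No member had an unadjusted p under 0.05, against 2.69% of all genes lower and 2.11% higher. The KO arrays lay below all HET arrays for 5 members, Atp5a1, Atp5g2, Atp5pb, Cyc1 and Uqcrc2, and above for 0, against 5.73% and 4.76% of all genes.

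Different probe sets of a gene did not always agree. In a fit with each probe set on its own, chosen after seeing the data, 105 member probe sets were tested and 5 were called between KO and WT, 4 of them higher and 1 lower, against 0.459% and 0.331% of all probe sets (0.79% in all). All 5 were dimmer probe sets of their genes. Of 46 dimmer probe sets tested, 25 were lower and 21 higher in KO, and 19 had the opposite sign to the brightest one. Cox5b's brightest probe set had an adjusted p of 0.0649 in this fit.

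The called probe set of Cycs gave 13283, 12728 and 12674 in KO, 9536, 13521 and 12433 in HET and 8594, 8858 and 8634 in WT. The brightest one gave 13611, 14608 and 14359 in KO, 14642, 13318 and 13317 in HET and 13879, 14616 and 14491 in WT. The KO arrays were all above the WT arrays on the one, while on the other KO replicates 2 and 3 lay among WT and KO replicate 1 below it, with differences of 0.57 ± 0.09 (adjusted p = 0.0236 in limma's test) and -0.01 ± 0.06. On the called probe set HET replicates 2 and 3 read like KO and HET replicate 1 was near WT, so that the HET arrays of the second spike-in set were 0.44 above the first, and KO minus WT was 0.12 with the set as a block.

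The other 4 called probe sets also set HET replicate 1 apart from the other HET arrays. A second Uqcrb probe set, for a small complex III subunit, gave 6840.0, 6568 and 6175 in KO, 5511, 6322 and 6146 in HET and 5011, 5256 and 4571 in WT, at 0.40 (adjusted p = 0.0382 in limma's test) and 0.22 with the block. A second Atp5o probe set, for the stalk subunit that confers oligomycin sensitivity, gave 4531, 4295 and 3739 in KO, 2827, 4295 and 3944 in HET and 2909, 2840.1 and 2696 in WT, at 0.57 (adjusted p = 0.0474) and 0.03 with the block. A dim probe set of Cox15, an enzyme of haem a synthesis, gave 197, 223 and 163 in KO, 129.6, 261 and 229 in HET and 92.3, 94.9 and 65.2 in WT, at 1.07 (adjusted p = 0.0474) and 0.24 with the block. In each of these 3, HET replicate 1 read lower than HET replicates 2 and 3. The second Cox6b1 probe set gave 13487, 13858 and 14098 in KO, 15706, 13896 and 14624 in HET and 16491, 16235 and 17520.3 in WT, at -0.28 (adjusted p = 0.0475) and -0.14 with the block. Here KO and WT did not overlap, and HET replicate 1 was the HET array closest to WT.

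**Figure D4:**
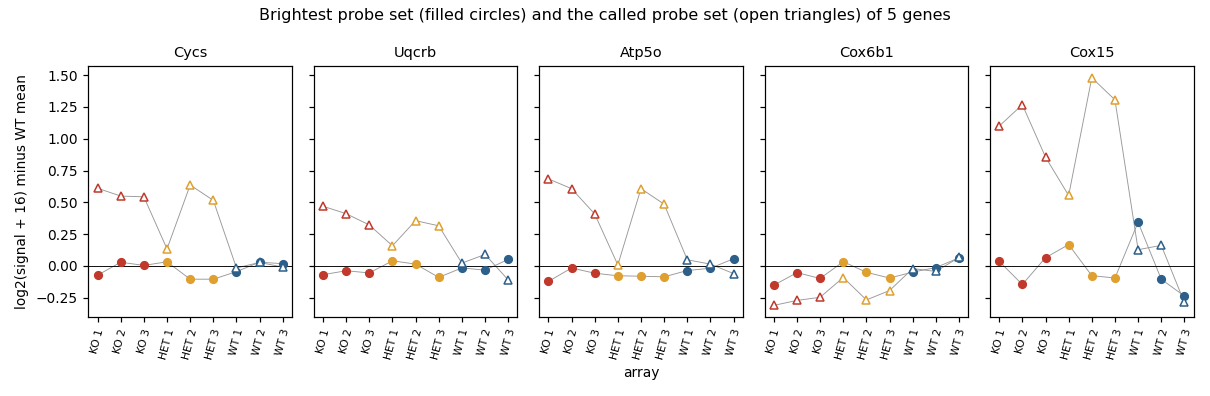
Log2(signal + 16) minus the WT mean (vertical axis) on each of the 9 arrays for the brightest probe set (filled circles) and the called probe set (open triangles) of 5 genes. The triangles of Cycs, Uqcrb, Atp5o and Cox15 are high in KO and in HET replicates 2 and 3, while the circles of the same genes stay near 0 apart from those of Cox15, which scatter.

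Promoters are shown for the called member Cox5b, for Cox7a1 and the Cox8 pair among the isoforms, and for Sdhd and Atp5e, which hold the ERR motif. RefSeq sequence of GRCm38.p6, from 250 bases before to 50 bases after the gene's start, was at hand for 46 of the 60 members, and not for Cox6a2. Motifs of 7 bases, 3 in number, were searched on both strands: AAGGTCA, the core of the site that ERR receptors bind, GCATGCG, of nuclear respiratory factor 1, and CCGGAAG, of the GABP (NRF-2) factor. The ERR core was in 5 of the 46 promoters (Atp5e, Atp5g3, Atp5k, Atp5l and Sdhd), or 10.9%, against 3.86% of 10441 tested genes and 5.38% of 27025 genes with a promoter. The NRF-1 core was in 9 (19.6%, against 7.02% and 4.01%) and the GABP core in 20 (43.5%, against 18.7% and 9.93%). The ERR and GABP letters can share their AAG, and the NRF-1 core can overlap its own complement, as it did in Cox6a1. In the sequences below, printed 5′ to 3′ on the gene's strand, capitals mark a match on either strand.

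Cox5b, the called subunit gene, and the heart isoforms Cox7a1 and Cox8b held none of the 3 motifs in these windows. Cox7a2, the general counterpart of Cox7a1, held none either, and its sequence is not printed. The windows are chr1:36691237-36691536 (plus strand) for Cox5b, chr7:30183921-30184220 (plus strand) for Cox7a1 and chr7:140900397-140900696 (minus strand) for Cox8b.
Cox5b: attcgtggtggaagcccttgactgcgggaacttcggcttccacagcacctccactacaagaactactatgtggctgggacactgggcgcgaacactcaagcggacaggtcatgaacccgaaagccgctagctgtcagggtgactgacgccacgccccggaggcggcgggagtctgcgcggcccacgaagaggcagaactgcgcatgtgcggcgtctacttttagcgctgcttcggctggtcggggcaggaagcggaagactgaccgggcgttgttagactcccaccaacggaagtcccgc
Cox7a1: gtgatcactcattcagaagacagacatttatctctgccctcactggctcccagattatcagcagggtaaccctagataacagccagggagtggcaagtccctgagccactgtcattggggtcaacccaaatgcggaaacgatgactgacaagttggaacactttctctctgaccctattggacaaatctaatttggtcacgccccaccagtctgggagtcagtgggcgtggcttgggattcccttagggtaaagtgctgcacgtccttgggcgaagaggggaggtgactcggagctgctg
Cox8b: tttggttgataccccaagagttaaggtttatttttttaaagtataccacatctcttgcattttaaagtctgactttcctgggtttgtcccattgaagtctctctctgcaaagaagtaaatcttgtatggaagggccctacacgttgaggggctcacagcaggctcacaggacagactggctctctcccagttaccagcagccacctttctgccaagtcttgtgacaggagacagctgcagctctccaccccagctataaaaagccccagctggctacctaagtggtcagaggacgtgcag

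Cox8a, the general counterpart of Cox8b, held the GABP core on the minus strand, beginning at -5 and at 32 relative to the start, in the window chr19:7217567-7217866 (minus strand). Atp5e held the GABP core at -102 and the ERR core at 24, in the window chr2:174464052-174464351 (minus strand). Sdhd held the GABP core at -46 and the ERR core at 36, in the window chr9:50603800-50604099 (minus strand). All these matches lay on the minus strand of the gene, so the complements CTTCCGG and TGACCTT are what is read here.
Cox8a: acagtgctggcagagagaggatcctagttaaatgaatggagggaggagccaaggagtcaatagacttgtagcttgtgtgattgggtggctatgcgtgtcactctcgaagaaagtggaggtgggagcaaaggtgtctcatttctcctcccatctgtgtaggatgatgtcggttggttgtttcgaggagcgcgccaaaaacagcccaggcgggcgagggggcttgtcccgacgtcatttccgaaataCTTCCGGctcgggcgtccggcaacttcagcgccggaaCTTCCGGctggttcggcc
Atp5e: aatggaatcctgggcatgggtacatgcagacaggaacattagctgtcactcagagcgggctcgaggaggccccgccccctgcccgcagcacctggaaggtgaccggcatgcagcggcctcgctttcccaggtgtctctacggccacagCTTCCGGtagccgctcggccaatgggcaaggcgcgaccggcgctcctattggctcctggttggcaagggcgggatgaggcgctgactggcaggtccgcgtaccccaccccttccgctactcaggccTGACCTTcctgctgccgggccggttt
Sdhd: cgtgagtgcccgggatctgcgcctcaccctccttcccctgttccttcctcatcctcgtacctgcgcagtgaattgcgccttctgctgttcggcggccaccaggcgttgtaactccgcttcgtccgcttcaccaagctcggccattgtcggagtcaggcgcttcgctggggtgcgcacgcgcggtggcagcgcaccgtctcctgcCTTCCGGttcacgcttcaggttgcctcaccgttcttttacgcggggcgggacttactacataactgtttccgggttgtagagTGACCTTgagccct

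Read beside the values, the 2 printed genes with the ERR core, Sdhd and Atp5e, had KO minus WT differences of -0.20 and -0.26, or 0.02 and 0.04 with the spike-in set as a block. The other 3 genes with that core, Atp5g3, Atp5k and Atp5l, had -0.04, -0.12 and -0.14, and Cox8a, without it, -0.29. A match is a run of letters and was not tested for binding. The members lie on 18 chromosomes, with 7 on chromosome 7, where Cox7a1 (chr7:30184171-30186030) and Cox6b1 (chr7:30616971-30626114) lie with Sdhaf1 within 441944 bases. Cox7a1 was higher in KO and Cox6b1 lower.

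Further assembly and regulatory factors of complexes II to V, not matched by the symbol rule, gave 1 call. Of 28 listed, 26 were on the array and 25 were tested. Uqcc1, an assembly factor of complex III, fell to 725, 732 and 776 in KO, with 914, 791 and 782 in HET, against 1008, 1060.2 and 967 in WT, a difference of -0.43 ± 0.09 (SE, n = 3 each, adjusted p = 0.0362 in limma's test). KO lay below every HET and WT array, and HET replicate 1 stood towards WT. With the spike-in set as a block the Uqcc1 difference was -0.22 ± 0.15 (adjusted p = 0.861). The 1 call among 25 stands against 0.883% of all genes called lower. Of the 25, 17 were lower in KO, with a median of -0.10, and at an unadjusted p under 0.05 there were 7 lower and 4 higher, against 9.28% and 7.91% of all genes. Oxa1l, which inserts proteins into the inner membrane, differed by -0.35 ± 0.09 (adjusted p = 0.0591), and by -0.27 with the block. Tmem70, an assembly factor of complex V, differed by 0.39 ± 0.11 (adjusted p = 0.0819), and by -0.02 with the block.

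Markers of cell types were read on the same arrays. All 5 ventricular cardiomyocyte markers (Myh6, Myh7, Myl2, Tnnt2 and Actc1) were present, at a summed signal of 105383 to 117871 in KO, 105766 to 118962 in HET and 117461 to 125552 in WT. Of them 4 of 5 were lower in KO, with a median of -0.17 and none called. With the spike-in set as a block the differences were 0.11 for Myh6, -0.19 for Myh7, 0.10 for Myl2, -0.01 for Tnnt2 and 0.01 for Actc1. In bulk tissue fewer cells of a type and less RNA per cell cannot be told apart, and the part of either in the results was not tested. Of 3 epicardial markers Tbx18 was called higher in KO (0.84, adjusted p = 0.032 in limma's test, and 0.23 with the spike-in set as a block, adjusted p = 0.923). Wt1 and Upk3b differed by 0.30 and 0.08 with no call. The 3 had a summed signal of 691 to 868 in KO, 715 to 918 in HET and 413 to 655 in WT. Of 4 endothelial markers Kdr was called lower (-0.74, adjusted p = 0.0262, and -0.25 with the block, adjusted p = 0.882), while Pecam1, Tek and Cdh5 differed by -0.09, -0.03 and 0.31 with no call. The 4 had a summed signal of 2248 to 2488 in KO, 2257 to 2940.2 in HET and 2648 to 3095 in WT. Of the 3 brown adipocyte markers Ucp1 and Adipoq were below the filter, while Cidea averaged 388 in KO, 310.3 in HET and 362 in WT and was not called. Of the 5 skeletal muscle markers Myog was below the filter, Myh3 and Myh8 were dim (means of 31.8 and 43.6 in KO and 31.9 and 35.2 in WT), and Ckm and Acta1 were bright, with none called. Fibroblast, smooth muscle, atrial, leukocyte and erythroid markers had no call between KO and WT. The median differences were 0.06 over 5 fibroblast, 0.24 over 3 smooth muscle, -0.19 over 3 atrial and -0.11 over 3 leukocyte markers. Alas2, the 1 erythroid marker tested, differed by 0.14. The part of these cell types in the results was not tested.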

How the data were processed

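Total RNA of fetal ventricles, 6 µg per sample, was hybridised to 9 Affymetrix arrays, 3 per genotype, per the labels. The deposited signal intensity of each probe set was made by the authors with MAS5, per the submitters' processing notes (version not given in the sources used here). Every array had a trimmed mean of 200 after leaving out 2% at each end.

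Gene names came from the platform annotation. The brightest probe set per gene was used on the log2(signal + 16) scale, and genes below the 40th percentile of probe sets (5.24) were left out, which left 13028. The test was limma 3.58.1 under R 4.3.3 with 1 mean per genotype over all 9 arrays and eBayes with an intensity trend, two-sided. The spike-in set served as a block in an alternative fit, and the other alternatives are listed in the closing section. Isoform pairs were compared with exact permutation tests.

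Named genes were the isoform pairs, called members and the 3 smallest p per role. Other members, dimmer probe sets and factors outside the symbol rule were named after their values were seen. Members and lists, including the spike-in sets, were chosen with earlier results of these data known. Figures used matplotlib 3.10.9.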

Additional observations from a re-analysis of the deposited data

How the results depend on the processing

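Other processing comprised quantile normalization, a shift of all arrays to a common median, other pseudocounts (1 or 64), no filter or one at the 60th percentile, averaging the probe sets of each gene, no intensity trend, only the 6 arrays compared, replicate and spike-in blocks, and leaving out each array. The number of members called between KO and WT (1 in the report) was 0 under quantile normalization, the median shift, a pseudocount of 1, no filter, the mean of probe sets, no trend, the replicate block and the spike-in block, 9 with only the 6 arrays compared, 0 to 11 on leaving out an array (11 without HET replicate 1), and 5 with each probe set on its own. Between HET and WT it ranged from 0 to 9 on leaving out an array (9 without HET replicate 1), and between KO and HET it stayed 0. The median KO minus WT difference of the members was -0.0129 after quantile normalization, -0.0376 with the mean of probe sets and 0.0039 with the spike-in block. The median HET minus WT difference was 0.0068 after quantile normalization, -0.1147 with the median shift, -0.0078 with the mean of probe sets and -0.0125 with the spike-in block. The median KO minus HET difference was 0.0652 with the median shift. The shift of Cox7a1 against Cox7a2 was 0.1594 after quantile normalization and 0.1822 with the spike-in block. That of Cox8b against Cox8a was 0.0111 with the mean of probe sets and 0.0273 with the block, and that of Cox6a2 against Cox6a1 was -0.4255 and -0.1215. On leaving out a KO or WT array the 3 shifts ran from 0.24 to 0.34, from 0.09 to 0.21 and from -0.06 to 0.09. The cause was not tested. Over all genes the count called between KO and WT (211) was 1 with the spike-in block, 6 without the trend, 7 with the mean of probe sets, 24 with the median shift, 85 without the filter, 127 with the replicate block, 773 with the 6 arrays and 10 to 840 on leaving out an array (840 without HET replicate 1). Between HET and WT it was 0, but 574 without HET replicate 1, 2 with the spike-in block, 1 with the replicate block and 1 without HET replicate 3, and between KO and HET it was 2, and 0 under 8 alternatives. Same-numbered arrays of different genotypes correlated at -0.04 to 0.05 in their deviations, and differently numbered ones at -0.06 to 0.08. No pairing by number was seen, but correlations over all genes with 3 arrays a group cannot exclude it. Dim probe sets, such as those of Cox4i2, Cox7c and Cox8c, limit what can be said of these genes.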
